A study of Mus musculus with 9 samples.

Results

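The features described here are intergenic noncoding loci that lie far from genes in mouse liver. They were chosen by annotation alone: an identifier of the intergenic noncoding class, 1 interval in the location column, and more than 100 kb on the same chromosome to the span of every named gene, where a named gene is a row with no noncoding identifier. The rule took 4390 of the 42910 intergenic features, which is 10.2%, in a table of 75794 features. They are called far intergenic features below. The STAT5ca group held 5 livers of male CD1 mice, an outbred stock, given 2e+11 genome copies of AAV8-STAT5ca by tail vein, 2 taken 4 weeks and 3 taken 6 weeks later. AAV8 is an adeno-associated virus whose serotype favours hepatocytes, and STAT5ca is a constitutively active STAT5. The control group held 4 livers of male CD1 mice given vehicle, 2 taken 4 weeks and 2 taken 6 weeks later. Their age was 11 to 12 weeks when taken at 4 weeks and 13 to 14 weeks when taken at 6 weeks. Control mice had no virus, so the virus and its cargo cannot be told apart, and the labels do not say that each library was a separate animal. Polyadenylated RNA from liver nuclei was sequenced, and the deposited table gives 1 RPKM value per group (reads scaled by feature length and library total, averaged over the libraries of a group, both times pooled).

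Long intergenic noncoding RNAs are transcripts without an evident protein product that lie between genes. Some act as RNAs, many are transcribed from enhancers or extend past the end of a gene, and most are retained in the nucleus, which nuclear RNA captures better than whole-cell RNA. STAT5 is the transcription factor through which pulses of pituitary growth hormone set the sex-biased programme of liver genes, and constant activation in a male liver resembles the female pattern of the hormone.

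Of the 12 growth hormone and STAT5 response genes examined, 7 were called higher and 3 lower in STAT5ca livers by the authors' deposited table (adjusted p under 0.05). Cish, a feedback inhibitor induced by STAT5, stood at 25.9 RPKM in STAT5ca livers and 1.44 RPKM in control livers. Hepatocyte markers led both groups. Of the 8 hepatocyte markers 2 were called higher and 0 lower, and the median log2 of their deposited folds was 0.016. Alb, among those called higher, stood at 14666 RPKM in STAT5ca livers and 4563 RPKM in control livers. Markers of other liver cells also differed in the authors' calls: 2 of 10 Kupffer cell and macrophage markers, 3 of 5 B cell markers and 2 of 8 T and NK cell markers were higher, and 2 of 8 endothelial and 3 of 8 stellate cell markers were lower. The summed level of the macrophage list was 478 RPKM in STAT5ca livers and 294 RPKM in control livers, that of the B cell list 31.2 against 15.1 RPKM, and that of the T and NK cell list 17.9 against 9.53 RPKM. The endothelial list summed to 232 RPKM in STAT5ca livers and 331 RPKM in control livers, and the stellate list to 113 against 168 RPKM. The cholangiocyte list, with 1 of 5 markers higher and 1 lower, summed to 76.4 against 16.9 RPKM. Most of that sum was Spp1, the marker called higher, at 73.0 against 12.8 RPKM. Sox9, the marker called lower, had 1.20 against 2.42 RPKM, and the median log2 of the list's deposited folds was -0.039. None of these markers was at 0 in both groups, their part in the results below was not tested, and in whole liver fewer cells of a type and less RNA per cell cannot be told apart. The library totals recovered from the table ran from 11823873 to 14863490 reads in STAT5ca libraries and from 9489045 to 13144589 reads in control libraries.

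Far intergenic features were short and faint. Their median length was 738.5 bases, with a longest interval of 527527 bases, and their median distance from the nearest named gene was 179 kb, with a greatest distance of 2122 kb. Of the 4390, 2786 were at 0 RPKM in both groups, which is 63.5%, against 46.5% of the intergenic features 5 to 100 kb from a gene and 35.4% of those within 5 kb. A further 523 were above 0 in STAT5ca livers alone, 184 in control livers alone and 897 in both. STAT5ca livers also had more libraries, 5 against 4 in control livers, and mostly deeper ones, and a read in any library lifts its group above 0. The part of library number and depth in the 523 against 184, and in the medians that follow, was not tested. Among the 1604 above 0 in either group the median level was 0.0514 RPKM in STAT5ca livers and 0.0265 RPKM in control livers. All 4390 together summed to 435 RPKM in STAT5ca livers and 399 RPKM in control livers, or 0.141% and 0.132% of the summed RPKM of each group. A mean over both groups of at least 0.1 RPKM was reached by 549 features, of at least 1 RPKM by 73 and of at least 10 RPKM by 5.

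Every intergenic feature of the table had 1 interval, so the interval count did not by itself show that a locus has a single exon. Low RPKM values offered a check, because a read is worth a fixed amount once the counted length is known. For 1309 of the 1468 far features that could be tested (89.2%) the values were whole reads at the full length of the interval. The share was 97.7% for intervals up to 2 kb, 77.2% from 2 to 10 kb and 35.9% over 10 kb. For the remaining 159 features no whole reads were found at that length, for a reason that was not tested, and "single-exon" is therefore not used for the far features as a group. The table gives no strand, and 806 of the 4390 overlapped another noncoding feature, 613 of them another far intergenic feature.

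STAT5ca livers had more far intergenic features called higher than called lower. By the same threshold on the adjusted p of the authors' deposited table, 117 of the 4390 were called higher (2.67%) and 29 lower (0.661%). Over all 75794 features of the same comparison 2.34% were called higher and 1.49% lower, or 3.83% in either direction. The share of far features called higher was close to that of features in general, and most far features were at 0 and could not be called. Among the 549 with a mean of at least 0.1 RPKM, 97 were higher (17.7%) and 26 lower (4.74%), against 6.34% higher and 4.22% lower over the 25547 features of any class at that level. That mean can be reached through 1 group alone: of the 97, 82 had at least 0.1 RPKM in STAT5ca livers and less in control livers, and of the 26 lower, 14 had at least 0.1 RPKM in control livers and less in STAT5ca livers. The shares at that level are therefore set in part by the filter and support no difference between classes. These shares are descriptions without a test, since neighbouring features are not independent, and 29 of the 117 higher calls came from the single run beside A1bg described below.

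Nearer to genes the counts of calls in both directions were closer to balance, with each feature counted separately. At 5 to 100 kb from a gene, 317 of 21594 intergenic features were called higher (1.47%) and 226 lower (1.05%). Within 5 kb, 150 of 16926 were called higher (0.886%) and 176 lower (1.04%). Higher calls made up 80.1% of the calls among far features, 58.4% of those at 5 to 100 kb, 46.0% of those within 5 kb and 66.8% of those among named genes. Without the run beside A1bg, 88 far features were higher and 29 lower. With each run of neighbouring far features, as defined below, counted once, the calls came to 50 higher and 21 lower. The nearer classes and named genes were not counted that way, so these shares support no difference between classes. Within the far class, 78 of 2494 features at 100 to 200 kb were higher and 14 lower, 29 of 1233 at 200 to 400 kb were higher and 14 lower, and 10 of 663 farther out were higher and 1 lower. The middle band depended on the A1bg run, without which it held 12 higher calls. Just outside the limit, at 90 to 100 kb, 9 of 482 intergenic features were higher and 2 lower, and just inside it, at 100 to 110 kb, 18 of 417 were higher and 0 lower.

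**Figure D1:**
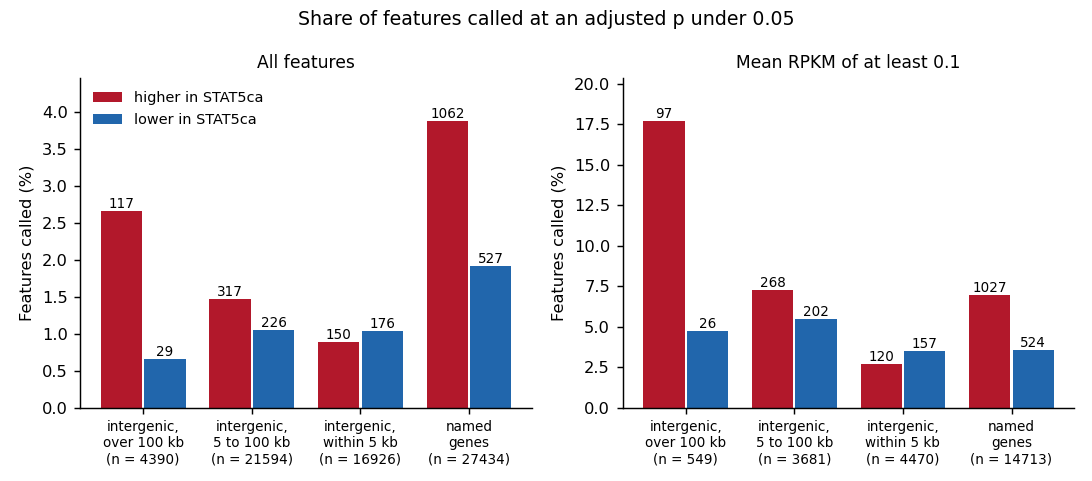
Percent of features called higher (red) or lower (blue) in STAT5ca than in control livers by the adjusted p of the authors' deposited table, for all features (left) and those with a mean of at least 0.1 RPKM (right). Numbers above bars are counts of features; among those over 100 kb from every named gene at that level, 97 were higher and 26 lower.

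The calls in the 2 directions differed in level and length. The 117 higher features had a median of 0.574 RPKM in STAT5ca livers and 0.0102 RPKM in control livers, and 46 of them were listed at 0 in control livers. The 29 lower features had a median of 0.0845 RPKM in STAT5ca livers and 0.867 RPKM in control livers, and 7 were listed at 0 in STAT5ca livers. The median interval of the higher features was 3868 bases and that of the lower ones 1065 bases. Long features collect more reads at the same RPKM, and the share called higher was 0.0627% of the 1594 intervals under 0.5 kb and 11.4% of the 273 intervals of 5 to 20 kb. Of the higher features 81 stayed under 1 RPKM in both groups, 15 reached a mean of at least 1 RPKM, and of the lower features 11 did. Over all far features the median log2 ratio of STAT5ca to control RPKM (0.1 added to each) was 0, because most were at 0 in both. Among the 549 at a mean of at least 0.1 RPKM it was 0.27, against 0.05 over all features at that level, values that the filter sets in part, since 167 of the 549 passed through their STAT5ca value alone and 61 through their control value alone.

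**Figure D2:**
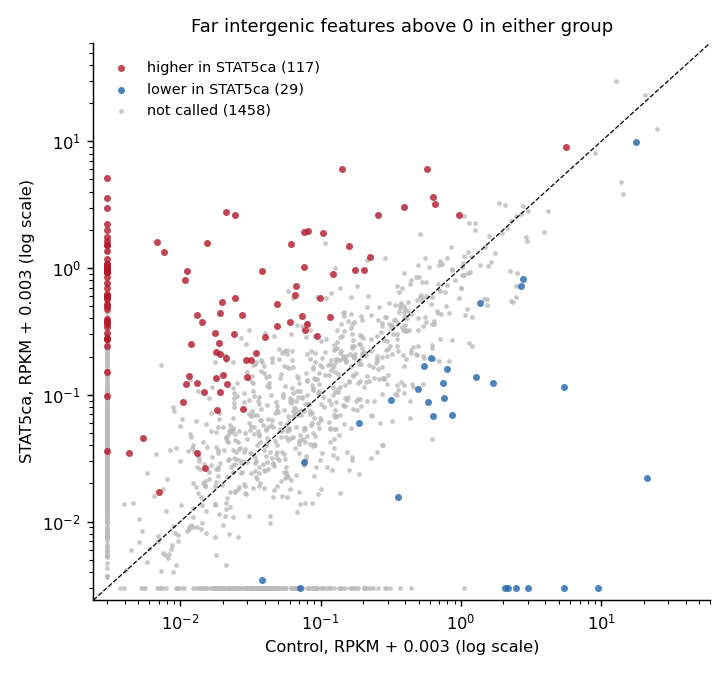
RPKM in STAT5ca livers (vertical) against RPKM in control livers (horizontal), both on a log scale after adding 0.003, for the 1604 far intergenic features above 0 in either group. The 117 called higher (red) lie above the dashed line of equality and 46 of them on the left edge, at 0 in control livers, while the 29 called lower (blue) lie below it.

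The most abundant far features were mostly not called. nc_inter_c10_18493 (chr10:50140725-50142823, mm9) had the highest STAT5ca value, 29.8 RPKM in STAT5ca livers and 12.7 RPKM in control livers, with an adjusted p of 0.0808 in the authors' deposited table. nc_inter_c3_37235, which the table also names Gm20752 and which spans 231716 bases, stood at 23.2 RPKM in STAT5ca livers and 20.6 RPKM in control livers, with an adjusted p of 1 in the authors' deposited table. nc_inter_c6_43117, a short interval of 208 bases, had 12.4 RPKM in STAT5ca livers and 25.1 RPKM in control livers, also with an adjusted p of 1 in the authors' deposited table. Of these most abundant features, nc_inter_c17_13576 (4930470H14Rik) was called lower, with 9.81 RPKM in STAT5ca livers against 17.7 RPKM in control livers, which is 1.89-fold lower with an adjusted p of 0.0011 in the authors' deposited table. The fifth, nc_inter_c7_5922, was called lower too and belongs to the chromosome 7 run described below. Among 29 well-known lncRNA genes found in the table, Firre, an X-linked RNA involved in nuclear organisation, was the 1 that met the distance rule, at 8.12 RPKM in STAT5ca livers and 9.05 RPKM in control livers with an adjusted p of 1 in the authors' deposited table. Of the 29, Airn and Pvt1 were called higher and Meg3 lower in that table.

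Other abundant features were called higher outside the largest runs. nc_inter_c3_2915 (Gm6135, chr3:133451907-133496105) had 6.00 RPKM in STAT5ca livers and 0.138 RPKM in control livers, 41.5-fold higher with an adjusted p of 5.21e-29 in the authors' deposited table. nc_inter_c9_8097, whose nearest gene is the hepatocyte transcription factor Onecut1 at 141.7 kb, had 3.64 RPKM in STAT5ca livers and 0.629 RPKM in control livers. nc_inter_c12_22068 had 3.23 RPKM in STAT5ca livers and 0.653 RPKM in control livers. nc_inter_c3_2733, 341.6 kb from the amylase gene Amy2b, had 3.01 RPKM in STAT5ca livers and 0.392 RPKM in control livers. These 4 stood 4.66-fold or more above control livers in the authors' deposited table. nc_inter_c1_291 (Gm8883) was the most abundant feature called higher and the one of these that changed least, with 9.06 RPKM in STAT5ca livers and 5.57 RPKM in control livers, 1.55-fold higher with an adjusted p of 0.0344 in the authors' deposited table.

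Many calls were neighbours. A run was taken as 2 or more far features on a chromosome, each at most 50 kb from the one before and with no named gene between. There were 580 such runs with 3429 of the far features, and 18 of them held at least 2 calls in 1 direction and none in the other. Of the 18, 14 were higher and 4 lower, and they held 81 of the 117 higher calls (69.2%) and 12 of the 29 lower calls. A further 36 higher and 17 lower calls lay outside them, and 1 run held calls of both directions. Beside their calls, the 14 higher runs held 101 features above 0 that were not called, of which 90 had a positive and 11 a negative fold in the authors' deposited table (89.1% positive, against 61.0% of all 1458 far features above 0 and not called). The runs were chosen for their higher calls, so this is a description. With each run counted once, the higher calls came to 50 and the lower calls to 21.

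The largest run stood beside A1bg, which encodes a plasma glycoprotein. A1bg itself had 591 RPKM in STAT5ca livers and 1.16 RPKM in control livers, 483-fold higher with an adjusted p of 3.01e-142 in the authors' deposited table. The run begins 133.3 kb from the end of A1bg, taken here as its highest coordinate, and covers chr15:60886079-61024057 (mm9). The strand of A1bg is not given, so whether the run lies downstream of it cannot be said. Of its 30 features 29 were called higher, and the other, nc_inter_c15_26861, was at 0 in both groups. Together they summed to 43.1 RPKM in STAT5ca livers and 0.137 RPKM in control livers. In STAT5ca livers the 29 ran from 0.356 to 5.15 RPKM with a median of 1.08 RPKM, whereas in control livers the highest was 0.0734 RPKM and 22 were listed at 0. Every STAT5ca value in the 29 was thus above every control value in the run.

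Levels did not drop steadily with distance from A1bg. Between A1bg and nc_inter_c15_12595, which adjoins the run, no intergenic feature was above 0.136 RPKM in STAT5ca livers. On the other side of A1bg, closer than 100 kb to it, most intergenic features were called higher as well. These were nc_inter_c15_12585, nc_inter_c15_26837 and all from nc_inter_c15_12586 to nc_inter_c15_12592. They had 0.616 to 1.74 RPKM in STAT5ca livers and 0 in control livers. Also on that side, nc_inter_c15_26833 to nc_inter_c15_26836, with at most 0.0565 RPKM in STAT5ca livers and 0 in control livers, were not called. Lratd2, a named gene beyond them, was called higher, with 3.66 RPKM in STAT5ca livers and 1.32 RPKM in control livers. The first feature of the run, nc_inter_c15_26845, had 1.98 RPKM in STAT5ca livers and was listed at 0 in control livers. The highest, nc_inter_c15_26851 at 177.0 kb, had 5.15 RPKM in STAT5ca livers and was listed at 0 in control livers. nc_inter_c15_26865, 256.9 kb away, had 2.95 RPKM in STAT5ca livers and 0 in control livers, and the last, nc_inter_c15_26868 at 268.0 kb, had 2.24 RPKM in STAT5ca livers and 0 in control livers. The longest, nc_inter_c15_12605 of 14174 bases, had reads in both groups, with 2.63 RPKM in STAT5ca livers and 0.0216 RPKM in control livers, 118-fold higher with an adjusted p of 1.51e-45 in the authors' deposited table. The 29 intervals cover 87.95 kb, 63.7% of the length of the run. Between A1bg and the next named gene, AC125455.1, lie 45 intergenic features over 613 kb, of which 33 were called higher and 0 lower. The 33 include nc_inter_c15_12595, a feature of 61.8 kb outside the run that ends where the run begins. It had 4.29 RPKM in STAT5ca livers and 0.0034 RPKM in control livers, 1122-fold higher with an adjusted p of 2.16e-145 in the authors' deposited table.

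**Figure D3:**
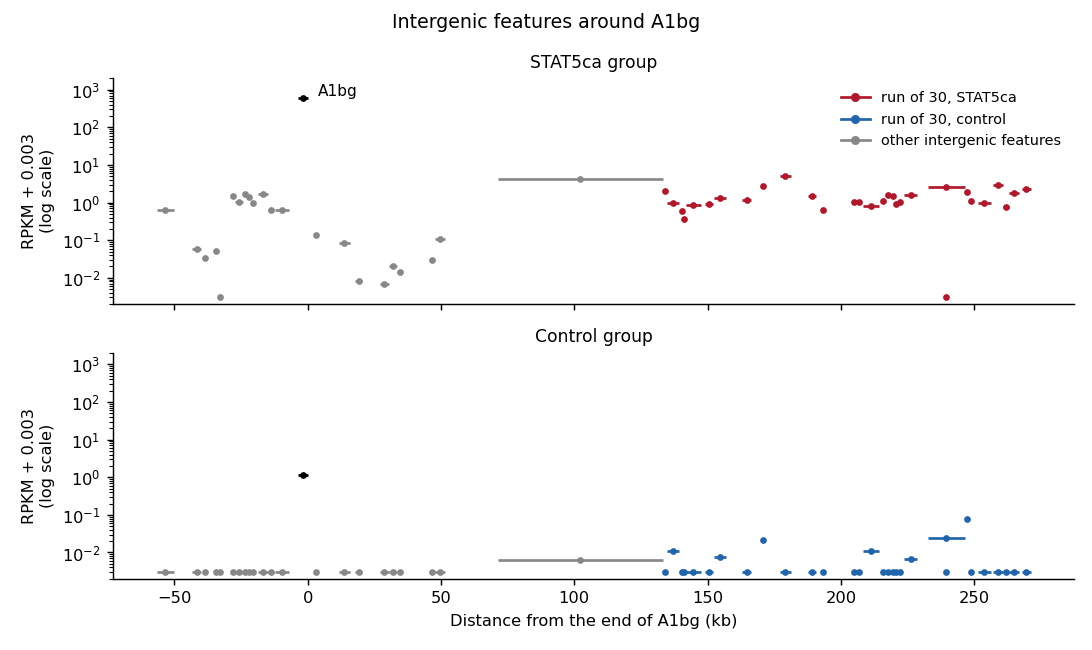
RPKM (log scale after adding 0.003) of A1bg (black) and of the intergenic features around it against distance from the end of A1bg in kb, in STAT5ca livers (upper panel) and control livers (lower panel); bars show feature length and points its middle. The 29 called features of the run lie between 0.356 and 5.15 RPKM in STAT5ca livers and at or below 0.0734 RPKM in control livers. The end of A1bg is taken as its highest coordinate, since no strand is given.

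A run on chromosome 18 had almost no control signal. It lies 123.9 kb from Hrh4, a histamine receptor gene listed at 0.0221 RPKM in STAT5ca livers and 0 in control livers and not called, and covers chr18:13305252-13407285. Of its 12 features 8 were called higher and 10 were above 0, and they summed to 8.96 RPKM in STAT5ca livers and 0.0125 RPKM in control livers. nc_inter_c18_30771 led with 3.54 RPKM in STAT5ca livers and 0 in control livers, and its adjusted p was 2.71e-58 in the authors' deposited table. nc_inter_c18_30777, the only one of the run with a control value above 0, had 1.56 RPKM in STAT5ca livers and 0.0125 RPKM in control livers, 87.9-fold higher with an adjusted p of 3.6e-21 in the authors' deposited table.

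On chromosome 2 most of the calls gathered at the end of a run that faces B3galt1, a galactosyltransferase gene. B3galt1 had 16.0 RPKM in STAT5ca livers and 5.66 RPKM in control livers, 2.69-fold higher with an adjusted p of 1.75e-05 in the authors' deposited table. Of the 25 features in chr2:67723649-67840328, 5 were called higher, and the run summed to 12.6 RPKM in STAT5ca livers and 2.00 RPKM in control livers. The 3 nearest to B3galt1 carried most of this. nc_inter_c2_1422, at 102.4 kb, had 2.62 RPKM in STAT5ca livers and 0.254 RPKM in control livers, 9.78-fold higher with an adjusted p of 1.09e-31 in the authors' deposited table. nc_inter_c2_1421, next to it, had 6.03 RPKM in STAT5ca livers and 0.567 RPKM in control livers, 10.1-fold higher with an adjusted p of 6.74e-24 in the authors' deposited table. nc_inter_c2_1420 had 1.22 RPKM in STAT5ca livers and 0.222 RPKM in control livers. Farther from the gene the values of the run were lower and of both signs. One call there, nc_inter_c2_33588, had Mir6335 as its nearest gene. It had 0.574 RPKM in STAT5ca livers and 0.0215 RPKM in control livers, 23.6-fold higher with an adjusted p of 8.45e-09 in the authors' deposited table. nc_inter_c2_33594 had 0.775 RPKM in STAT5ca livers and 0.559 RPKM in control livers with an adjusted p of 1 in the authors' deposited table. A further 5 intergenic features closer than 100 kb to a gene were called higher in the same stretch between named genes and none lower.

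Runs on chromosomes 6 and 15 were faint, with neighbours mostly of the same sign. The chromosome 6 run, chr6:144258290-144571410, lies between Sox5, a transcription factor gene, and Sox5os5, and held 60 features, of which 35 were above 0 and 10 were called higher. It summed to 4.69 RPKM in STAT5ca livers and 0.608 RPKM in control livers. Of the 35, 33 had a positive and 2 a negative fold in the authors' deposited table, and Sox5 itself, with 2.30 RPKM in STAT5ca livers and 1.46 RPKM in control livers, had an adjusted p of 0.134 there. nc_inter_c6_5775, an interval of 55200 bases, had 0.184 RPKM in STAT5ca livers and 0.029 RPKM in control livers. The second chromosome 15 run, chr15:62462305-62575557, begins 411.3 kb from H2afy3. It held 33 features, of which 25 were above 0 and 6 were called higher, and it summed to 5.84 RPKM in STAT5ca livers and 0.651 RPKM in control livers. nc_inter_c15_12630 had 0.932 RPKM in STAT5ca livers and was listed at 0 in control livers.

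The chromosome 7 run was the largest lower one. All 6 of its features, in chr7:15549756-15677545, were called lower. They summed to 0.253 RPKM in STAT5ca livers and 46.3 RPKM in control livers. In the 5 that could be taken apart into reads per library, 723 of 749 control reads lay in the deepest control library. Those 5 summed to 0.234 RPKM in STAT5ca livers and 25.0 RPKM in control livers, or 1.44 RPKM in control livers without that library. For nc_inter_c7_43894 and nc_inter_c7_43895 the reads came from a search limited to solutions with nearly all reads in 1 library. Their concentration was thus set by the search. Without that limit, the deepest control library held 69 of 71 control reads of nc_inter_c7_43891, 34 of 48 of nc_inter_c7_43893 and 62 of 63 of nc_inter_c7_43896. nc_inter_c7_5922, of 122163 bases, had 0.019 RPKM in STAT5ca livers and 21.3 RPKM in control livers, 858-fold lower with an adjusted p of 6.57e-06 in the authors' deposited table. The run lies between Obox7 and Obox2, members of a family of oocyte homeobox genes, 296.7 kb or more from either, and both were at 0 in both groups. How reads with several matches in the genome were counted is not given in the sources used here, and whether these features have other copies was not tested.

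**Figure D4:**
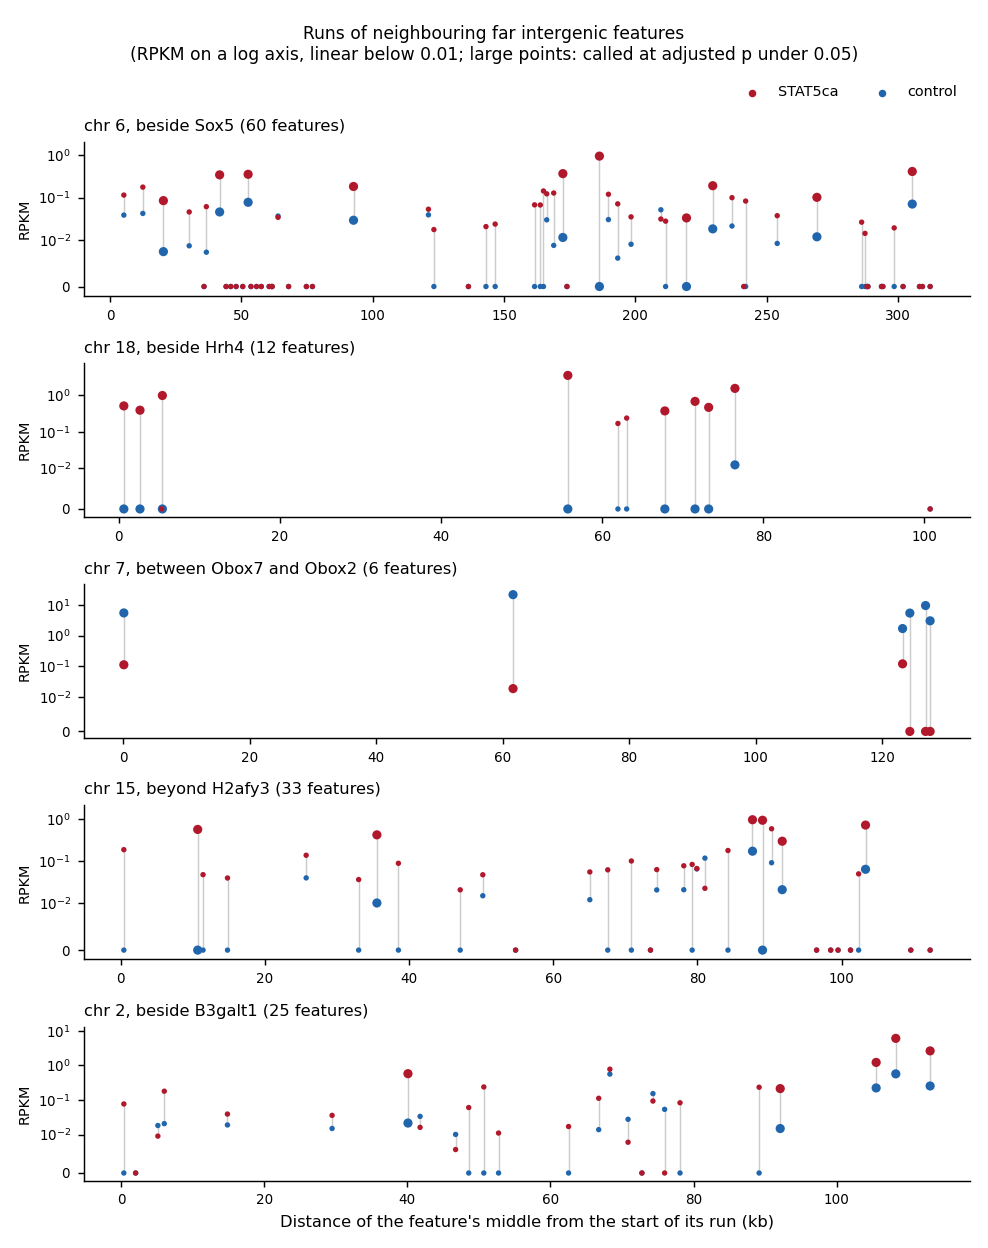
RPKM of the far intergenic features of 5 runs in STAT5ca (red) and control (blue) livers against the distance of each feature's middle from the start of its run, on a vertical axis that is logarithmic above 0.01 RPKM and linear below. Large points mark calls, a vertical line joins the 2 values of a feature, and a feature at 0 in both groups shows as 1 red point; the chromosome 7 run is the one with control livers above.

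The other 12 runs held 2 to 4 calls each. Of these, 2 higher runs adjoined a gene that was itself called higher: the 8 features beside Mthfs, a folate enzyme gene, of which 4 were called, and the 3 beside Snx10, a sorting nexin gene, of which 2 were called. Beside Mthfs the run summed to 0.639 RPKM in STAT5ca livers and 0.0836 RPKM in control livers, and beside Snx10 to 1.23 RPKM in STAT5ca livers and 0.0349 RPKM in control livers. A run of 42 features between Wwox and the transcription factor gene Maf held 3 higher calls and summed to 1.30 RPKM in STAT5ca livers and 0.563 RPKM in control livers. On chromosome 12, 10 features reached up to 0.499 RPKM in STAT5ca livers and were all at 0 in control livers, with 2 called. Of the lower runs, the one between Lrfn2 and Mocs1, a gene of molybdenum cofactor synthesis, had 2 of 5 features called. It summed to 0.633 RPKM in STAT5ca livers and 2.04 RPKM in control livers, and Mocs1 was called lower as well, with 23.9 RPKM in STAT5ca livers and 39.2 RPKM in control livers.

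The nearest named gene mostly did not share the call. Of the 117 higher features, 37 had a nearest gene that was higher too (31.6%), 29 of which were the A1bg run. Without that run the count was 8 of 88 (9.09%), with B3galt1, Igf1, Mthfs and Snx10 as the genes, against 2.47% of the 4244 features not called. Several of the 8 were neighbours in the runs beside B3galt1 and Snx10. Of the features not called, 2786 were at 0 in both groups. These shares are therefore descriptions without a test. Igf1 encodes the growth factor that liver secretes in response to growth hormone. The nearest gene of 1 higher feature, Bach2, was called lower. Of the 29 lower features, 0 had a nearest gene called higher and 1, beside Mocs1, a nearest gene called lower, against 0.778% of the features not called. The nearest gene was at 0 in both groups for 34 of the higher and 21 of the lower features.

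For faint features the group value could be taken apart into whole reads per library, which shows the spread that the group value hides. Libraries are named by their depth within a group, from 1 (shallowest) to 5 or 4 (deepest), since the table does not tie a value to a sample or a time. Among the 293 far features with 10 to 40 reads over all 9 libraries, every STAT5ca library was above every control library for 16 (5.46%) and below for 6 (2.05%). Over the 5979 noncoding features of 1 interval treated the same way the shares were 2.74% and 2.53%. Summed over the 293, STAT5ca libraries held 48.0, 53.3, 66.1, 50.2 and 57.3 RPM (reads scaled by the library total), and control libraries 45.2, 42.3, 42.7 and 55.7 RPM. The sums overlap, through the deepest control library.

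Higher calls that could be taken apart were mostly spread over the STAT5ca libraries. Of the 15 with reads known in every library, 12 had reads in each of the 5 STAT5ca libraries and 12 did not overlap with control libraries (80%). Separation is part of what a call measures, and among the 82 other noncoding features of 1 interval called higher and taken apart, 84.1% did not overlap. In the A1bg run, nc_inter_c15_26846 had 6, 2, 8, 5 and 18 reads in the STAT5ca libraries and 0 in each control library, a level of 0.599 ± 0.437 RPKM in STAT5ca livers (SD, n = 5). nc_inter_c15_12603, from the same run, had 6, 9, 8, 2 and 11 reads in the STAT5ca libraries and 0 in each control library, or 0.617 ± 0.274 RPKM (SD, n = 5). In the chromosome 18 run, nc_inter_c18_30776 had 5, 9, 7, 9 and 13 reads in the STAT5ca libraries and 0 in each control library, or 0.471 ± 0.134 RPKM (SD, n = 5). Its neighbour nc_inter_c18_30769 had 3, 23, 8, 6 and 5 reads in the STAT5ca libraries and 0 in each control library, so that 1 library held about as many as the others together. nc_inter_c6_5780 was similar, with 1, 1, 3, 13 and 3 reads in the STAT5ca libraries and 0 in each control library. nc_inter_c10_8692 had 3, 0, 11, 10 and 16 reads in the STAT5ca libraries and 0, 0, 1 and 0 in the control libraries, which overlap at 0.

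One higher call rested on 1 library. nc_inter_c3_36087, singled out after its values were seen, had 104 of 106 STAT5ca reads in library 5, with 1 each in libraries 3 and 4 and 0 in control livers, and an adjusted p of 0.047 in the authors' deposited table. It was found by a search limited to solutions with nearly all reads in 1 library, so the spread of the other higher calls with many reads was not resolved.

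**Figure D5:**
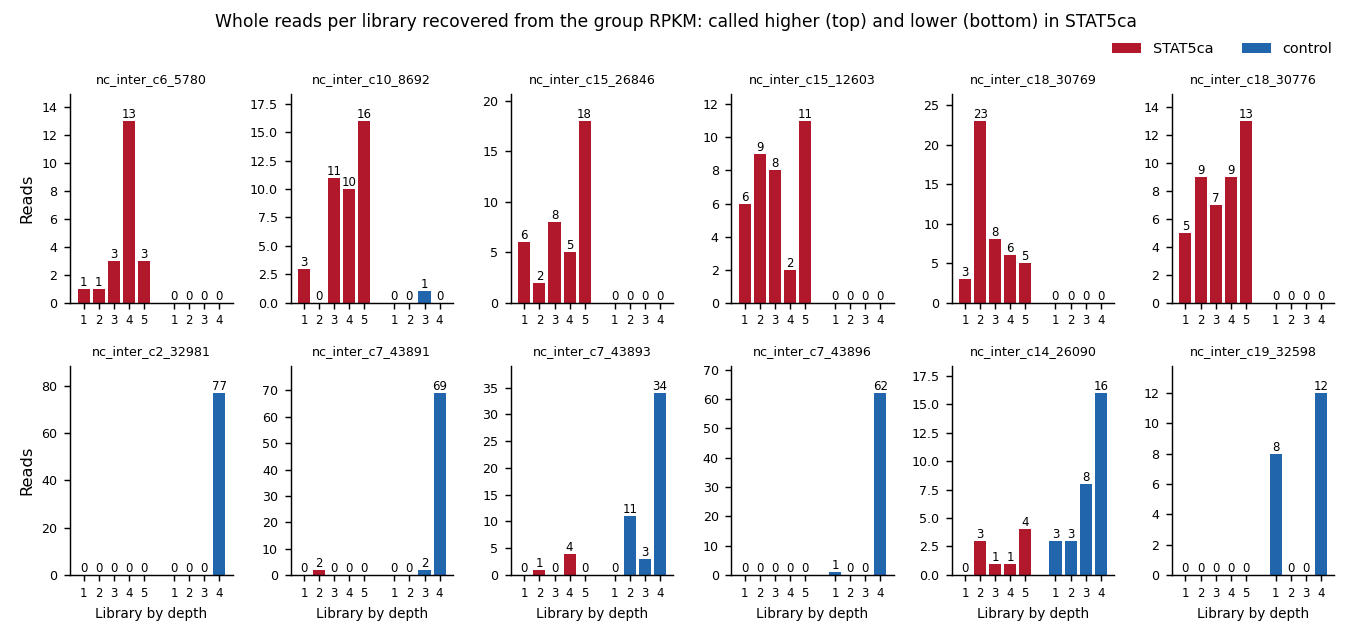
Whole reads per library, by depth within the group, for 6 far intergenic features called higher (top row) and 6 called lower (bottom row), with STAT5ca libraries (red) left of control libraries (blue). The higher features have reads in most STAT5ca libraries, whereas nc_inter_c2_32981 and the features of chromosome 7 have most control reads in library 4, the deepest.

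Of the 15 lower calls with reads known in both groups, 4 did not overlap (26.7%), against 63.0% of the 146 other noncoding features of 1 interval called lower and taken apart, a difference that was not tested. On chromosome 7, nc_inter_c7_43896 had 0 reads in each STAT5ca library and 1, 0, 0 and 62 in the control libraries. nc_inter_c7_43891 had 0, 2, 0, 0 and 0 reads in the STAT5ca libraries and 0, 0, 2 and 69 in the control libraries. These reads lie almost entirely in the deepest control library, and the groups overlap in the rest. nc_inter_c7_43895 had 0 reads in each STAT5ca library and 3, 0, 0 and 276 in the control libraries, and nc_inter_c7_43894 had 0 in each STAT5ca library and 6, 0, 0 and 282 in the control libraries. nc_inter_c7_43893 was wider, with 0, 1, 0, 4 and 0 reads in the STAT5ca libraries and 0, 11, 3 and 34 in the control libraries. The control reads of nc_inter_c7_43894 and nc_inter_c7_43895 came from the search limited to solutions with nearly all reads in 1 library. The longest of that run, nc_inter_c7_5922, could not be taken apart.

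On chromosome 2, nc_inter_c2_32981 had 0 reads in each STAT5ca library and 0, 0, 0 and 77 in the control libraries, while its neighbour nc_inter_c2_32980, also called lower, could not be taken apart. Without the 5 lower features that had at least 80% of their control reads in 1 library, 24 of the 29 lower calls remained. Among the 24 were calls that could not be taken apart, such as nc_inter_c7_5922 and nc_inter_c2_32980, so the spread of their control reads is not known. Others of the 24 had control reads in every library. nc_inter_c14_26096 had 2, 0, 0, 0 and 0 reads in the STAT5ca libraries and 5, 4, 7 and 4 in the control libraries, or 0.0659 ± 0.147 RPKM in STAT5ca livers (SD, n = 5) and 0.867 ± 0.249 RPKM in control livers (SD, n = 4), with no overlap. nc_inter_c17_29978, from the run beside Mocs1, had 0, 1, 3, 1 and 0 reads in the STAT5ca libraries and 12, 10, 3 and 3 in the control libraries, again with no overlap once depth is taken into account. nc_inter_c14_26090 had 0, 3, 1, 1 and 4 reads in the STAT5ca libraries and 3, 3, 8 and 16 in the control libraries, also without overlap after scaling by depth. nc_inter_c19_32598 had 0 in each STAT5ca library and 8, 0, 0 and 12 in the control libraries, so that its call rests on 2 of 4 control libraries.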

How the data were processed

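Nuclear polyadenylated RNA was sequenced in 9 libraries (5 STAT5ca, 4 control). Per the submitters' processing notes, the tools were STAR, featureCounts and edgeR and the build was mm9. The authors deposited 1 RPKM per feature and group over collapsed exons, per the file headers. The fold is a deposited score, positive where STAT5ca is above control and negative where it is below. The deposited adjusted p-value is headed as coming from edgeR, and the sources used here do not give its adjustment, its covariates or whether counting used strand. Columns were read with pandas 2.3.3 and numpy 2.4.6 in Python 3.11.15, and figures drawn with matplotlib 3.10.9. Starts behave as counted from 0, so 1 was added. The location text of 3 named genes was cut short, and 1 member lies within 1000 kb after one of them. No genome of the build was used, so no sequence is shown.

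Distances ran from the feature's interval to the span of each named gene on the same chromosome. Calls used the authors' adjusted p under 0.05 over all features, with no fit of the group values. Whole reads per library were recovered as the whole numbers whose scaled mean gave the deposited RPKM to its 8 digits, at totals found from low values, for up to 60 reads in the STAT5ca group and 90 in the control group. Single solutions were found for 88.0% of 20486 low STAT5ca values and 89.9% of 19587 low control values. Lengths shifted by up to 3 bases gave solutions for 2.39% and 0.735%, so a few recovered values may be wrong. For called features with more reads, solutions with nearly all reads in 1 library were sought: at most 300 reads there and at most 3 (STAT5ca) or 6 (control) in each other library. Counts cover counting error only where PCR copies are not marked.

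The members and the gene lists were chosen with earlier results of these data known. Named are the 10 called members with the highest mean in each direction, the 6 with the largest fold above 0 in both groups at a mean of at least 0.25 RPKM, the 5 highest of any call, members of the 6 runs with most calls, up to 6 in each direction with reads per library, and their nearest genes. Alternatives were other p, fold, distance and level limits, other gaps in a run, and leaving out libraries.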

Additional observations from a re-analysis of the deposited data

Results flagged for a closer look

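Within a group of 4 or 5 libraries, a library was marked when its gap to the nearest other, divided by the range of the group, passed Dixon's 95% critical value. Chance marks about 1 in 20 groups of independent normal values, which small read counts of chosen and partly neighbouring features are not. The number marked is therefore a description. Of 26 groups checked among the named features, 6 were marked. Of these, 3 were lower features with their control reads in the deepest control library: nc_inter_c2_32981 with a ratio of 1, nc_inter_c7_43896 with 0.9777 and nc_inter_c7_43891 with 0.9687. In control livers nc_inter_c6_5794, called higher, had 7 reads in library 1 against 2, 2 and 3 in the others, a ratio of 0.8888. In STAT5ca livers nc_inter_c6_5780 had 13 reads in library 4 against 1 to 3 in the others, a ratio of 0.8301, and nc_inter_c18_30769 had 23 reads in library 2 against 3 to 8 in the others, a ratio of 0.7756. The ratios were taken on reads scaled by depth. What sets these libraries apart was not tested.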

How the results depend on the processing

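No paired analysis was possible because the deposited table holds 1 value per group, with no column per replicate. The 117 higher calls became 188 at over 50 kb from named genes, 39 at over 200 kb and 179 when only genes with a mean of at least 0.1 RPKM counted for distance, on 8070, 1896 and 8254 features. With each run counted once, chosen after seeing the data, they became 50. The 29 lower calls became 15 at an adjusted p under 0.01, 55 at over 50 kb, 15 at over 200 kb and 58 with expressed genes only. The other alternatives kept both counts within 1.5 times: 88 to 115 higher and 21 to 30 lower. The median log2 ratio of 0 became 0.18 among features above 0 in both groups (0.03 over all features) and 0.27 at a mean of at least 0.1 RPKM (0.05). Runs called in 1 direction numbered 14 to 20 under other gaps and the stricter p. Leaving out 1 library at a time gave 18 to 25 features whose STAT5ca libraries were all above the control libraries, against 16, and 6 to 12 with all below, against 6, which is 6.14% to 8.53% and 2.05% to 4.1% of the 293. Over all features treated alike the shares were 3.46% to 4.35% and 3.38% to 4.70%. The counts of 25 came without STAT5ca library 1 or 2 (by depth), and those of 10 to 12 without STAT5ca library 3 or control library 1, 3 or 4. Fewer libraries make separation easier by construction. At 20 to 40 reads 12 far features were above (8.89%, against 4.07% over all) and 3 below (2.22%, against 2.81%). The authors' own fit could not be repeated, and at 1 to 2 reads per library absence cannot be told from low expression.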
